A study of Mus musculus with 24 samples.

Results

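The genes described here encode the MYC and MAX network of transcription factors, measured in Ku70-/- mouse embryonic fibroblasts (MEFs). The members are Myc, Mycn, Mycl1, Max, Mxd1, Mxd3, Mxd4, Mxi1 and Mnt, 9 of the 19505 genes for which the array has a probe. They were found by gene name or older synonym in the array annotation, which lists 17 probes for them. Where a member has several probes, the brightest one over the 24 arrays stands for it.

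MYC, MYCN and MYCL are basic helix-loop-helix leucine zipper proteins that bind DNA as heterodimers with MAX, at E-boxes, of which CACGTG is the best known, and activate genes of growth, ribosome synthesis and metabolism. MXD1, MXD3, MXD4, MXI1 and MNT also pair with MAX, bind the same sites and recruit the SIN3 and histone deacetylase corepressors, so that they oppose MYC. In fibroblasts Myc is a classical early response gene of growth factor signaling, and its mRNA and protein are both short lived.

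The cells are MEFs deficient in Ku70 (Xrcc6), a protein of nonhomologous end joining, and every group, controls included, carries that deletion. In the first set of 15 arrays, cells were untreated, received 20 mM KBrO3 (potassium bromate, an oxidizing agent) for 1 hr, or were co-exposed to 150 μM bisphenol A (BPA) before, during and after the same KBrO3 treatment, and were sampled 4 or 24 hr after KBrO3 was added. In the second set of 9 arrays, cells were untreated or received 150 μM BPA alone and were sampled at 4 or 24 hr as the labels give it; the Methods give 1 hr more in BPA. Each of the 8 groups has 3 biological replicates. The first set's controls are labeled 4 hr and the second set's carry no time, so the 24 hr groups have no control labeled 24 hr.

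The share of spots well above background was 57.7 to 68.1% in the first set and 76.4 to 79.4% in the second, and the median residual SD over 27180 probes tested in both was 0.106 and 0.318 log2 units, so that the second set resolves only larger changes. Each set was compared only with its own controls. Arrays lay on 5 slides per set. Controls shared a slide with the KBrO3 4 hr, BPA 4 hr and BPA 24 hr arrays, and co-exposed 24 hr arrays with KBrO3 24 hr arrays. Between 4 and 24 hr, the co-exposed groups and the BPA groups are linked only through slides that each shares with another group. In the other comparisons slide and group cannot be told apart. Of 11 fibroblast markers, 10 were well above background on all 15 arrays of the first set and 11 on all 9 of the second. Markers of other cells also passed on all arrays of the first and second set, in 3 and 3 of 5 for leukocytes, 1 and 3 of 5 for epithelium, 1 and 2 of 4 for endothelium and 1 and 3 of 4 for muscle, so that these markers do not set the cells apart as fibroblasts. The Xrcc6 probe was well above background on 24 arrays; whether it lies in the deleted part is not given in the sources used here, so it does not check the genotype. In bulk RNA, a lower signal in fewer cells and in each cell cannot be told apart.

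The E-box is shown first, because members of this network are themselves candidates for binding by their own products. RefSeq promoter windows (GRCm38.p6, 250 bases before to 50 bases after the start of transcription) were at hand for the members other than Myc, 8 of the 9, with 10 windows in all. The 6 letters CACGTG, which read the same on both strands, occurred in the windows of 3 of these 8 members, Max, Mxd4 and Mnt. Among all 27025 genes with a window the share was 8.09%. Counted by window it was 3 of 10 for the members, and 7.15% of all 32851 promoter windows. The 3 windows are printed with 30 bases after the start, 5′ to 3′ on the strand of the gene and with the E-box in capitals; they lie at chr12:76962219-76962498 (minus strand), chr5:34187681-34187960 (minus strand) and chr11:74830674-74830953 (plus strand). The first base of the E-box lies 3 bases before the start in Max, 219 before it in Mxd4 and 123 before it in Mnt. A match of letters is a description of the sequence and not a measured binding site.
Max: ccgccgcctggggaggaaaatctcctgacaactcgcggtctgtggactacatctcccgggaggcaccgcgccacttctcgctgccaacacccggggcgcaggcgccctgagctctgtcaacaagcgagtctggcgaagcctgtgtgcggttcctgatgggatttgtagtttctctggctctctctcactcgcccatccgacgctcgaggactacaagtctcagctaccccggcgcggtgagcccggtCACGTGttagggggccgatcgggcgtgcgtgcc
Mxd4: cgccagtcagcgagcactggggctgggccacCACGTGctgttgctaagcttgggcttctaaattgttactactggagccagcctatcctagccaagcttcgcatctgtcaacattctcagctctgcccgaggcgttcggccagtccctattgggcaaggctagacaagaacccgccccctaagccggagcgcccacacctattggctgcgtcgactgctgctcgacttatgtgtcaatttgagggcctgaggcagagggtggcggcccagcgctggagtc
Mnt: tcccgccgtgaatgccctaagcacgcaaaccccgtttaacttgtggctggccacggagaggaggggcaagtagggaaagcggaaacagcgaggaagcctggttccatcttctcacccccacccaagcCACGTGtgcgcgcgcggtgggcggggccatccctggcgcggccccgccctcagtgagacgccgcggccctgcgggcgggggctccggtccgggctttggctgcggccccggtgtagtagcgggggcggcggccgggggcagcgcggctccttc
The promoter windows of Mycn, Mycl1, Mxd1, Mxd3 and Mxi1 did not hold these letters. These 3 E-box genes did not move together on the arrays: as given below, Max rose and Mxd4 fell with co-exposure at 4 hr, and Mnt was not altered.

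A probe of 60 bases is the unit of measurement, and the second probes of Mxd3 and Mxd4 are printed because they gave a second reading of genes that fell in both KBrO3 treatments. The second Mxi1 probe is printed because the array annotation (build mm7 in the file headers) puts it at chr19:53272217-53272276 on the minus strand, whereas the brighter Mxi1 probe, at chr19:53274432-53274491, lies on the plus strand like the RefSeq promoter windows of Mxi1. No base is marked in these probes.
Mxd3 A_51_P315530: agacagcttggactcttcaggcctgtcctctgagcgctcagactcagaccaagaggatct
Mxd4 A_51_P148865: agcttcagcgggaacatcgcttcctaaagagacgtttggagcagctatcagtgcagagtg
Mxi1 A_52_P270513: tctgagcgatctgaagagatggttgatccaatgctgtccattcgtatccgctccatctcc
The reversed Mxi1 probe was well above background on 1 of 15 arrays of the first set and 9 of 9 of the second, and its values are not used for Mxi1.

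All log2 signals below are relative to the 75th percentile of the array, and fold changes compare means of log2 signals. In the first set a gene is called altered at a p below 0.01 after Bonferroni adjustment across every tested probe, with a fold change beyond 1.5, the thresholds of the Methods; in the second set a Benjamini-Hochberg adjusted p below 0.05 and the same fold were used, and adjusted p-values follow these ways in each set. Probes that no group of a set showed well above background on each of its arrays were not tested there.

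**Figure D1:**
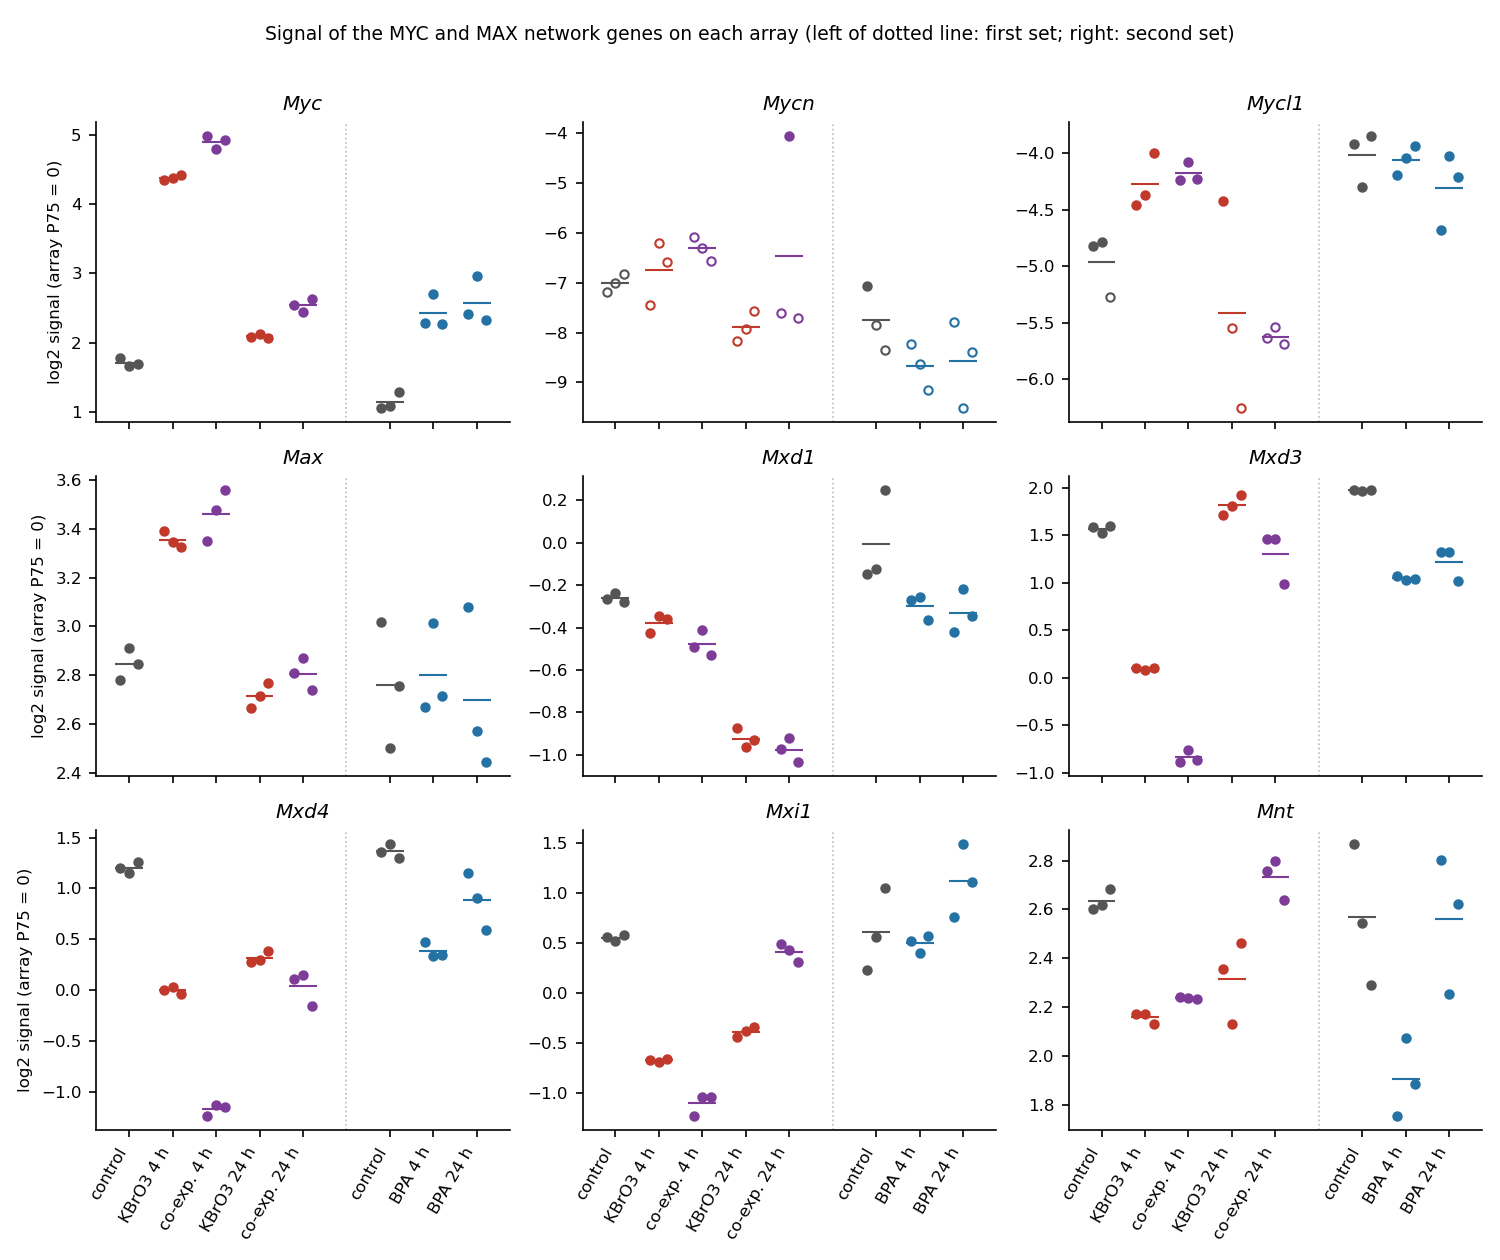
Log2 signal of each member on each of the 24 arrays, relative to the 75th percentile of the array (y axis), by group (x axis), with the first set left of the dotted line and the second right of it. Points are arrays, lines are means of 3 arrays, and open points were not well above background. Myc is highest at 4 hr in both groups that received KBrO3, where Mxd3, Mxd4 and Mxi1 are lowest.

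Myc, the member with the most widely acting product, rose in every treatment except KBrO3 alone at 24 hr, where its change was under the fold threshold. Its probe (A_51_P102096, chr15:62064256-62064316, mm7) read 1.78, 1.66 and 1.69 on the control arrays of the first set. KBrO3 alone gave readings of 4.34, 4.38 and 4.42 at 4 hr and of 2.08, 2.13 and 2.07 at 24 hr. In co-exposed cells the arrays gave 4.98, 4.79 and 4.92 at 4 hr and 2.55, 2.44 and 2.63 at 24 hr. The 4 treated groups lay above the controls on all arrays, the co-exposed arrays lay above those of KBrO3 alone at both times, and both treatments were closer to control at 24 hr. The rise was 6.37-fold at 4 hr with KBrO3 alone (log2 change 2.67 ± 0.060 SE, adjusted p = 7.33e-10) and 9.12-fold with co-exposure (3.19 ± 0.060, adjusted p = 9.51e-11). At 24 hr it was 1.78-fold with co-exposure (0.83 ± 0.060, adjusted p = 0.000422), and Myc was 1.30-fold higher with KBrO3 alone (0.38 ± 0.060, adjusted p = 1). On the 1 slide that held both controls and KBrO3 4 hr arrays the Myc difference was 2.69. With slide as a random block the 24 hr co-exposure call was lost (log2 change 0.83, adjusted p = 0.0700).

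In the second set Myc read 1.05, 1.09 and 1.28 in controls, 2.29, 2.71 and 2.27 after 4 hr of BPA and 2.41, 2.96 and 2.33 after 24 hr. No BPA array overlapped the controls, and replicate 2 was the highest at both times. The rise was 2.43-fold at 4 hr (log2 change 1.28 ± 0.23 SE, adjusted p = 0.0169) and 2.69-fold at 24 hr (1.43 ± 0.23, adjusted p = 0.0132). Within slides the difference was 1.23 at 4 hr, and 1.32 and 1.68 at 24 hr; with slide as a fixed block neither call held (adjusted p = 0.282 and 0.0861). The 4 hr call was also lost without control replicate 2 or any 1 BPA array, with log2 changes from 1.14 to 1.36.

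The other Myc probes bear on how firmly the 24 hr values can be taken. A_52_P108346 gave rises of 6.30-fold and 9.22-fold at 4 hr in the first set and 2.18-fold and 2.57-fold with BPA. At 24 hr in the first set it was 1.37-fold higher with KBrO3 alone (adjusted p = 0.439) and rose 1.87-fold with co-exposure (adjusted p = 0.00037). A_52_P278549, the farthest upstream of the 3, gave 4.73-fold and 5.07-fold at 4 hr, both altered. At 24 hr it was 1.17-fold lower than control with KBrO3 alone (adjusted p = 1) and 1.25-fold higher with co-exposure (adjusted p = 1), with overlapping arrays. With BPA it was 1.84-fold and 2.78-fold higher, and neither passed (adjusted p = 0.482 and 0.238).

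Mycn and Mycl1, the paralogs that take over MYC's role in neural and some epithelial cells, were dim in these fibroblasts. The brighter of the pair of Mycn probes was well above background on 1 of 15 and 1 of 9 arrays and neither probe was tested in any comparison. Its reading on co-exposed 24 hr replicate 2 was −4.05, against −7.62 and −7.70 on the other arrays of that group, and all other arrays lay between −9.52 and −6.08.

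Mycl1 was well above background on 9 of 15 arrays and on all 9 of the second set, and in the first set it passed the filter only through the groups sampled at 4 hr after KBrO3, where it was highest. It read −4.82, −4.79 and −5.27 in controls, −4.45, −4.36 and −4.00 in KBrO3 alone at 4 hr and −4.23, −4.08 and −4.22 with co-exposure. The 24 hr readings were −4.42, −5.55 and −6.26 with KBrO3 alone and −5.64, −5.54 and −5.69 with co-exposure. The array that stands apart, KBrO3 24 hr replicate 1, is also the one with the largest share of spots well above background, 68.1% against 62.1 and 59.6% for its replicates; the part of this in the Mycl1 value was not tested. Mycl1 was not altered in any comparison at each set's own threshold. No size is given for its 4 hr differences from control or its change from 4 to 24 hr. The 4 hr groups admitted it to the test, and most 24 hr arrays were not above background. With normexp the 4 hr differences from control took the other direction. On none of the co-exposed 24 hr arrays was Mycl1 well above background. BPA-set readings lay between −4.68 and −3.85 with no difference between groups that passed (adjusted p from 0.553 to 0.945).

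Max, the shared partner of all the others, changed little. It read 2.78, 2.91 and 2.85 in controls, 3.39, 3.35 and 3.33 in KBrO3 alone at 4 hr and 3.35, 3.48 and 3.56 with co-exposure at 4 hr, and the treated arrays lay above the controls. The arrays of 24 hr read 2.67, 2.71 and 2.77 with KBrO3 alone and 2.81, 2.87 and 2.74 with co-exposure, where only the co-exposed arrays overlapped the controls. Only co-exposure at 4 hr passed, at 1.53-fold (log2 change 0.62 ± 0.059 SE, adjusted p = 0.00811), just inside the fold threshold. KBrO3 alone gave 1.42-fold (0.51 ± 0.059, adjusted p = 0.0587). The call was lost without any 1 of the 3 controls or without co-exposed replicate 2 or 3, when adjusted p was 0.029 to 0.090, with slide as a random block (adjusted p = 1), with the replicate block (adjusted p = 0.0412), without the filter on dim probes (adjusted p = 0.0263) and under other scalings and normexp: the log2 change was 0.46 with quantile scaling, 0.48 with the median and 0.95 with normexp (adjusted p = 0.0903, 1 and 0.394). Max lay 1.56-fold lower at 24 hr than at 4 hr with KBrO3 alone and 1.58-fold lower with co-exposure; both passed (adjusted p = 0.00548 and 0.00415), the first was lost without any 1 array and the second without 5 of the 6 arrays. Both were also lost with the replicate block (adjusted p = 0.0296 and 0.0234) and with slide as a random block (adjusted p = 0.769 and 0.0702), and the second with slide as a fixed block (adjusted p = 1). Quantile scaling, median scaling and normexp ended both; the log2 changes were −0.35, −0.49 and −0.55 after KBrO3 alone, and −0.49, −0.20 and −0.65 in co-exposed cells. With BPA alone the groups overlapped and the change was 1.03-fold at 4 hr and −1.04-fold at 24 hr.

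Mxd3 and Mxd4, 2 of the 4 MXD-family repressors, fell in both treatments at 4 hr, and Mxd4 fell further with co-exposure than with KBrO3 alone. Mxd3, which is known from proliferating cells in S phase, read 1.59, 1.52 and 1.60 in controls and 0.10, 0.09 and 0.11 with KBrO3 alone at 4 hr. It read −0.89, −0.76 and −0.86 with co-exposure at 4 hr. At 24 hr it read 1.72, 1.81 and 1.93 with KBrO3 alone and 1.46, 1.47 and 0.99 with co-exposure. No array of the 4 hr groups came near the controls, while co-exposed replicate 3 at 24 hr lay apart from its group. The fall was 2.78-fold with KBrO3 alone (log2 change −1.47 ± 0.11 SE, adjusted p = 0.000397) and 5.31-fold with co-exposure (−2.41 ± 0.11, adjusted p = 1.63e-06), and neither 24 hr difference passed (1.19-fold and −1.2-fold, adjusted p = 1 for both). From 4 to 24 hr Mxd3 rose 3.30-fold with KBrO3 alone and 4.42-fold with co-exposure (adjusted p = 7.06e-05 and 6.09e-06). The second probe, printed above, gave falls of 2.62-fold and 4.91-fold at 4 hr, both altered.

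Mxd4, linked to cells that leave the cell cycle, read 1.20, 1.15 and 1.26 in controls. It read 0.00, 0.03 and −0.04 in KBrO3 alone at 4 hr and −1.24, −1.13 and −1.15 with co-exposure at 4 hr. At 24 hr it read 0.28, 0.30 and 0.38 with KBrO3 alone and 0.11, 0.15 and −0.15 with co-exposure, so that it stayed below all controls in the 4 groups. The fall was 2.31-fold and 5.20-fold at 4 hr (adjusted p = 4.5e-05 and 2.07e-08) and 1.85-fold and 2.25-fold at 24 hr (adjusted p = 0.00136 and 6.52e-05). Leaving out control replicate 1 or 3, or KBrO3 24 hr replicate 1 or 2, raised the adjusted p of the 24 hr fall with KBrO3 alone to 0.0153 to 0.0176, and the replicate block to 0.0175. The other Mxd4 probe tested in the first set read smaller changes in the same direction, 1.53-fold (not altered) and 2.50-fold lower at 4 hr and 1.54-fold (not altered) and 1.73-fold lower at 24 hr.

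With BPA alone both genes were lower at 4 hr. Mxd3 read 1.98, 1.97 and 1.98 in controls, 1.07, 1.03 and 1.04 at 4 hr and 1.32, 1.32 and 1.02 at 24 hr. Mxd4 read 1.36, 1.44 and 1.30 in controls, 0.47, 0.34 and 0.34 at 4 hr and 1.15, 0.91 and 0.59 at 24 hr. No BPA array of either gene reached the controls. Mxd3 fell 1.90-fold at 4 hr (log2 change −0.93 ± 0.17 SE, adjusted p = 0.0186) and 1.69-fold at 24 hr (−0.75 ± 0.17, adjusted p = 0.0468). Mxd4 fell 1.98-fold at 4 hr (−0.98 ± 0.19, adjusted p = 0.0249) and was 1.40-fold lower at 24 hr (adjusted p = 0.228). Within slides the Mxd3 difference was −0.92 at 4 hr and −0.65 and −0.66 at 24 hr, and that of Mxd4 at 4 hr was −0.96. With slide as a fixed block all 3 calls were lost (adjusted p = 0.315 and 0.16 for Mxd3 and 0.312 for Mxd4), as with the replicate block (0.0612, 0.112 and 0.06). These 3 calls lay near the threshold: the 24 hr call of Mxd3 was lost without any 1 array of the comparison, as was the 4 hr call of Mxd4, and that of Mxd3 without any 1 but control replicate 1, while the log2 changes moved only between −1.03 and −0.65. The other Mxd3 probe gave −2.72-fold at 4 hr (adjusted p = 0.0348) and −1.66-fold at 24 hr (adjusted p = 0.255), whereas the other Mxd4 probes gave −1.12-fold (adjusted p = 0.721) and −1.64-fold (adjusted p = 0.152) at 4 hr.

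Mxi1, which limits growth in several tissues, behaved differently at 24 hr in the 2 KBrO3 treatments. It read 0.56, 0.52 and 0.58 in controls, −0.68, −0.69 and −0.66 in KBrO3 alone at 4 hr and −1.24, −1.04 and −1.04 with co-exposure at 4 hr. By contrast, 24 hr readings were −0.44, −0.38 and −0.34 with KBrO3 alone but 0.49, 0.43 and 0.31 with co-exposure, close to the controls. The fall was 2.34-fold and 3.16-fold at 4 hr (adjusted p = 4.97e-06 and 1.63e-07) and 1.92-fold at 24 hr with KBrO3 alone (adjusted p = 1e-04), while co-exposed cells at 24 hr differed from control by −1.11-fold (adjusted p = 1). Between 4 and 24 hr Mxi1 rose 2.86-fold in co-exposed cells (adjusted p = 4.64e-07) and was 1.22-fold higher with KBrO3 alone (adjusted p = 1). With BPA alone it read 0.52, 0.40 and 0.57 at 4 hr and 0.76, 1.49 and 1.11 at 24 hr against 0.23, 0.56 and 1.05 in controls, and the groups overlapped at both times.

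Mxd1 and Mnt, the other repressors, were not altered at 4 hr. Mxd1, induced in many cells as they differentiate, read −0.27, −0.24 and −0.28 in controls, and −0.42, −0.35 and −0.36 with KBrO3 alone and −0.49, −0.41 and −0.53 with co-exposure at 4 hr. Its 24 hr readings were −0.88, −0.96 and −0.93 with KBrO3 alone and −0.97, −0.92 and −1.04 with co-exposure. At the later time it fell, 1.58-fold with KBrO3 alone (log2 change −0.66 ± 0.045 SE, adjusted p = 0.000205) and 1.64-fold with co-exposure (−0.71 ± 0.045, adjusted p = 8.86e-05), against −1.08-fold and −1.16-fold at 4 hr (adjusted p = 1 for both). The difference between the times did not pass (−1.46-fold and −1.41-fold). With slide as a random block both 24 hr calls were lost (log2 change −0.68 and −0.70, adjusted p = 0.0159 and 0.0112). BPA alone gave −1.22-fold and −1.25-fold (adjusted p = 0.441 and 0.394). The dimmer Mxd1 probe differed by −1.47-fold and −1.66-fold at 24 hr in the first set, with a larger error (0.27 SE), and was not altered. At 4 hr its means were −3.21 with KBrO3 alone and −3.17 with co-exposure, against −3.56 in controls. That is the other direction from the brighter probe, and it was also not altered then.

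Mnt, the widely expressed antagonist, was altered in no comparison of groups with these settings; with arrays scaled to the median it was, between 4 and 24 hr of co-exposure (log2 change 0.96, adjusted p = 0.00404, against 0.49 with the 75th percentile). It read 2.60, 2.62 and 2.68 in controls, 2.17, 2.17 and 2.13 in KBrO3 alone at 4 hr and 2.24, 2.24 and 2.23 with co-exposure, 1.39-fold and 1.32-fold lower with all arrays below the controls. Readings at 24 hr were 2.36, 2.13 and 2.47 with KBrO3 alone and 2.76, 2.80 and 2.64 with co-exposure. After 4 hr of BPA alone it read 1.76, 2.08 and 1.89 against 2.87, 2.55 and 2.29 in controls (−1.58-fold, adjusted p = 0.151), and 2.80, 2.26 and 2.62 at 24 hr.

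**Figure D2:**
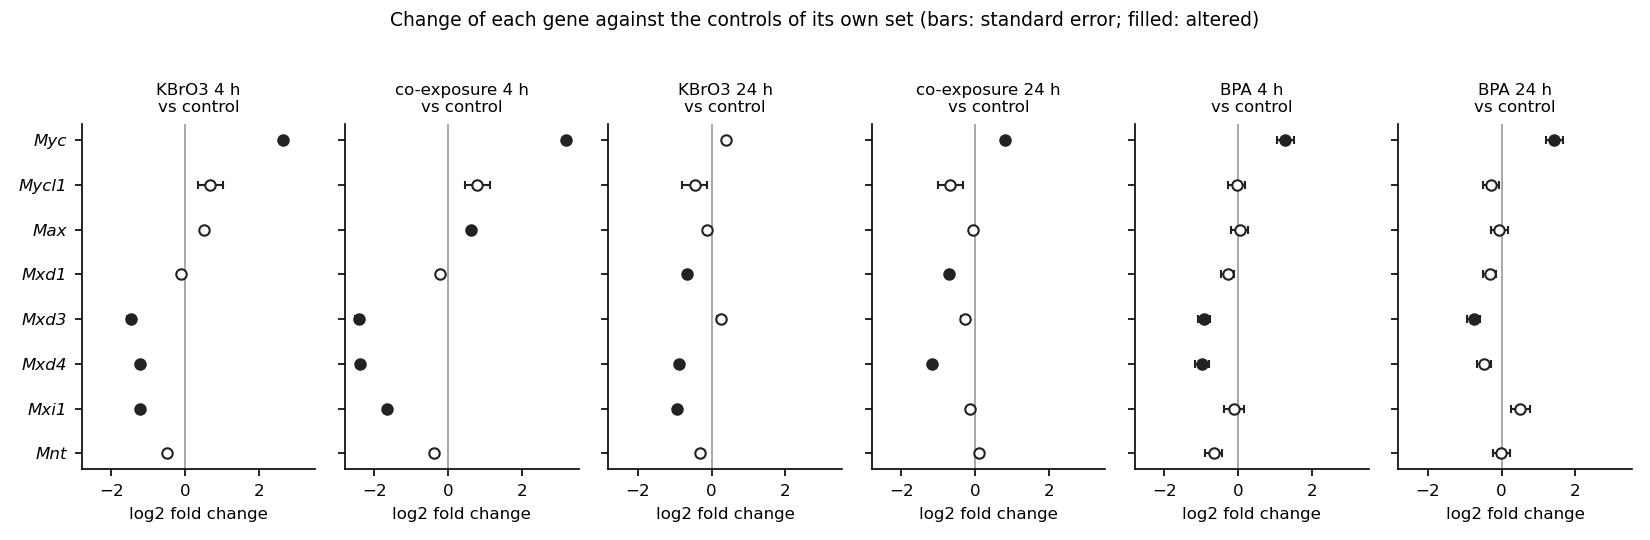
Log2 fold change (x axis) of the 8 members tested against the controls of their own set in 6 comparisons, with standard errors; filled points are altered. At 4 hr after KBrO3 the changes run from 2.67 (Myc) to −1.47 (Mxd3), and with co-exposure from 3.19 (Myc) to −2.41 (Mxd3).

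Of the 9 members, 8 passed the filter on dim probes in each comparison. KBrO3 alone at 4 hr altered 4 of them, 1 higher and 3 lower, where 31.2% of the 14537 genes tested were altered, 14.5% higher and 16.7% lower. Co-exposure at 4 hr altered 5, 2 higher and 3 lower, against 35.8% of genes (16.0% higher and 19.7% lower). At 24 hr KBrO3 alone altered 3, all lower, against 19.8% of genes (7.92% higher and 11.9% lower). Co-exposure at 24 hr altered 3, 1 higher and 2 lower, against 23.5% (10.8% higher and 12.8% lower). As shares of the 8 these counts are 50, 62.5, 37.5 and 37.5%, each above that of all genes, and the difference was not tested. With so few members it is which members moved, and which way, that the values describe. The median log2 change of the tested members was −0.29, −0.31, −0.38 and −0.21 in these 4 comparisons, beside 0.06, 0.08, −0.02 and −0.07 over all probes. Scaling to the array median or normexp background correction left none of the 3 calls with KBrO3 alone at 24 hr, and 1 and 0 of the 3 with co-exposure at 24 hr. Normexp also ended the 4 hr calls of Mxd3 and Mxd4 with KBrO3 alone (log2 change −1.22 and −0.98, adjusted p = 0.119 and 0.144).

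With BPA alone, 3 members were altered at 4 hr, 1 higher and 2 lower, where 4.70% of the 16330 genes tested were (3.06% higher and 1.64% lower). At 24 hr 2 were altered, 1 higher and 1 lower, against 4.32% (1.81% higher and 2.51% lower). At the Methods' Bonferroni threshold limma called none of them at either time (0.110% and 0.0306% of genes), with unadjusted p under 0.05 for 4 members at 4 hr (20.2% of genes) and 3 at 24 hr (20.8%). The median log2 change of the tested members was −0.20 and −0.17, beside −0.03 and −0.01 over all probes. Scaling to the array median kept only the calls of Myc at both times, and normexp none.

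Between 4 and 24 hr KBrO3 alone altered 3 members, Mxd3 higher and Myc and Max lower, against 29.6% of genes (13.9% higher and 15.7% lower). Co-exposure altered 5 over the same interval, Mxd3, Mxd4 and Mxi1 higher and Myc and Max lower, against 34.5% (18.2% higher and 16.3% lower). Myc fell 4.89-fold and 5.13-fold (adjusted p = 4.3e-09 and 3.06e-09). With slide as a fixed block 4 of the 5 calls of co-exposure held, all but Max. The second Mxd4 probe gave 0.52 in place of 1.21 and missed the threshold (adjusted p = 0.0737), and normexp left 3 of the 5, without Mxd4 (adjusted p = 0.0594) and Max. With BPA alone limma called no member between the times, where 4.34% of genes were altered (1.21% higher and 3.13% lower) and 0.0551% passed the Bonferroni threshold, which no member did; the unadjusted p was under 0.05 for 3 members and 21.6% of genes.

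BPA was then compared when added to KBrO3 and when given alone. In co-exposed cells against KBrO3 alone at 4 hr, 1 member was altered (6.01% of genes, 2.83% higher and 3.17% lower): Mxd4 fell 2.25-fold further (log2 difference −1.17 ± 0.072 SE, adjusted p = 6.45e-05), and 1.63-fold by its second probe (−0.70 ± 0.062, adjusted p = 0.0034), while normexp ended the call (adjusted p = 0.0733). Mxd3 was 1.91-fold lower on all arrays but missed the threshold (−0.93 ± 0.11, adjusted p = 0.0499), while its second probe passed it (−1.88-fold, adjusted p = 0.00383). Myc was 1.43-fold higher (0.52 ± 0.060, adjusted p = 0.0626) and Mxi1 1.35-fold lower (adjusted p = 0.365). At 24 hr 1 member was altered (7.39% of genes, 3.80% higher and 3.59% lower): Mxi1 was 1.73-fold higher in co-exposed cells (0.79 ± 0.060, adjusted p = 0.000634), with a difference of 0.82 on the slide that held both groups; with slide as a fixed block the adjusted p was 0.024, with scaling to the median 0.0108 and with normexp 0.195. Myc was 1.36-fold (adjusted p = 0.257) and Mnt 1.33-fold higher (adjusted p = 1), and Mxd3 was 1.43-fold lower (adjusted p = 1).

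Whether the effect of added BPA changed from 4 to 24 hr was tested as an interaction, at a Benjamini-Hochberg adjusted p below 0.05, as for all interactions. It passed for 4 of the 8 members, where 57.3% of all genes passed. The groups compared at 4 hr shared no slide, so slide and added BPA cannot be told apart at that time. The 24 hr difference lay above the 4 hr difference by 1.23 ± 0.085 (SE) for Mxi1 (adjusted p = 7.83e-07), 0.89 ± 0.10 for Mxd4 (adjusted p = 2.95e-05), 0.42 ± 0.15 for Mxd3 (adjusted p = 0.033) and 0.34 ± 0.10 for Mnt (adjusted p = 0.0146). For Mxi1 and Mnt every co-exposed array lay above KBrO3 alone at 24 hr. The value of Mxd3 was 0.34 to 0.43 without 1 of 9 arrays that each raised p above the threshold, and that of Mnt missed it with slide as a random block (adjusted p = 0.0766), quantile scaling (0.0544) and normexp (0.619). The effect of BPA alone was then set against the effect of BPA added to KBrO3, in 1 fit over both sets. It differed for Myc, by 0.76 ± 0.21 at 4 hr (adjusted p = 0.0281) and, at the later time, by 0.98 ± 0.21 (adjusted p = 0.0141), the difference from its own reference being larger when BPA was given alone; 9.93% and 3.37% of genes passed. No other member passed; for Mnt at 4 hr the difference was −0.74 ± 0.23 (adjusted p = 0.0516), and for Mxd3 and Mxd4 it was 0.01 ± 0.28 and 0.19 ± 0.21 (adjusted p = 0.992 and 0.627). In the added case the reference was KBrO3 alone, where Myc stood 6.37-fold above control at 4 hr and 0.38 log2 units above it at 24 hr. The part of the reference level in these differences was not tested. Without control replicate 1 or 2 or BPA replicate 2 or 3 of the second set the 4 hr difference was 0.62 to 0.84 and missed the threshold, as did that at 24 hr without control replicate 2 (0.95) or BPA replicate 2 (0.78). Normexp ended both Myc calls (adjusted p = 0.519 and 0.378) and the one of Mxd3 over time (0.537).

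**Figure D3:**
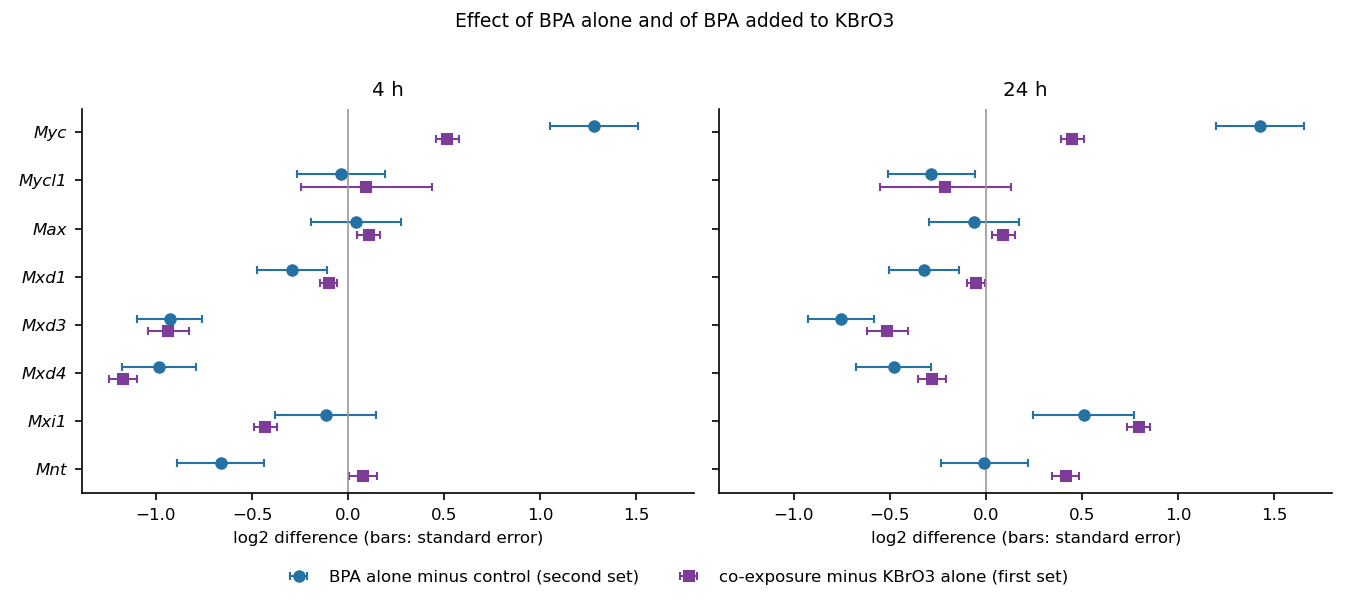
Log2 difference (x axis, with standard errors) for BPA alone against control (circles, second set) and for co-exposure against KBrO3 alone (squares, first set) at 4 and 24 hr, for the 8 members tested. Mxd3 and Mxd4 lie near −1 for both at 4 hr, while Myc lies at 1.28 with BPA alone and 0.52 when BPA was added.

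Group means centered within each set were used to find the genes whose pattern over the 8 groups was most like that of Myc. Among 14467 other genes, the 5 with the smallest root mean square difference were Pvr (0.147), Hsph1 (0.196), Foxc2 (0.197), Bend3 (0.227) and Ifrd1 (0.234). Pvr, the poliovirus receptor of cell adhesion, had centered means of 1.33 and 1.48 at 4 hr with KBrO3 and co-exposure and 0.56 with BPA at 24 hr, beside 1.26, 1.77 and 0.52 for Myc. Hsph1 encodes a heat shock protein, Foxc2 a forkhead factor, and Ifrd1 an interferon-related regulator.

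The genes around the network were taken from lists written from general knowledge with earlier results of these data known, so that their counts are no independent evidence; the shares of all genes altered are those given above. Of 30 genes known to be induced by MYC, 26 rose and none fell at 4 hr after KBrO3 alone, with a median log2 change of 1.83. With co-exposure 24 rose and none fell (median 1.85). At 24 hr 15 and 21 rose, with medians of 0.80 and 1.14, and none fell. BPA alone gave 4 rises at 4 hr and 9 at 24 hr, with medians of 0.46 and 0.65, and none at either time at the Bonferroni threshold. Between 4 and 24 hr 19 of the 30 fell and none rose with KBrO3 alone, and 16 fell and 2 rose with co-exposure. Adding BPA to KBrO3 altered 3 and 4 of them, all higher, with medians of −0.09 and 0.24. Slc7a5, an amino acid transporter, rose 3.99-fold with KBrO3 and 9.55-fold with co-exposure at 4 hr. Nolc1, a nucleolar phosphoprotein of ribosome assembly, rose 7.47-fold and 6.44-fold. Odc1, the first enzyme of polyamine synthesis, rose 4.31-fold and 7.45-fold. Hk2, a hexokinase of glycolysis, rose 4.52-fold and 7.32-fold in those groups and 9.27-fold with BPA alone at 4 hr.

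The 10 genes known to be repressed by MYC did not share a direction. At 4 hr 3 rose and 3 fell with KBrO3 alone (median −0.42), and 4 rose and 2 fell with co-exposure (median 0.05). At 24 hr 1 rose and 6 fell with KBrO3 alone (median −1.13), and 2 rose and 5 fell with co-exposure (median −1.02). BPA alone raised 2 at 4 hr and 1 at 24 hr, with medians of 0.01 and −0.24 and no falls, and none passed the Bonferroni threshold. Cdkn1a, the p21 inhibitor of cyclin-dependent kinases and also a p53 target, rose 8.47-fold and 7.55-fold at 4 hr, and Gadd45a, also a stress-induced gene, rose 4.94-fold with co-exposure at 4 hr and 4.40-fold with BPA at 4 hr. Thbs1, an extracellular matrix glycoprotein, fell 2.81-fold with KBrO3 and 12.2-fold with co-exposure at 24 hr, and Gas1, a growth arrest gene, fell 3.38-fold and 5.32-fold.

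**Figure D4:**
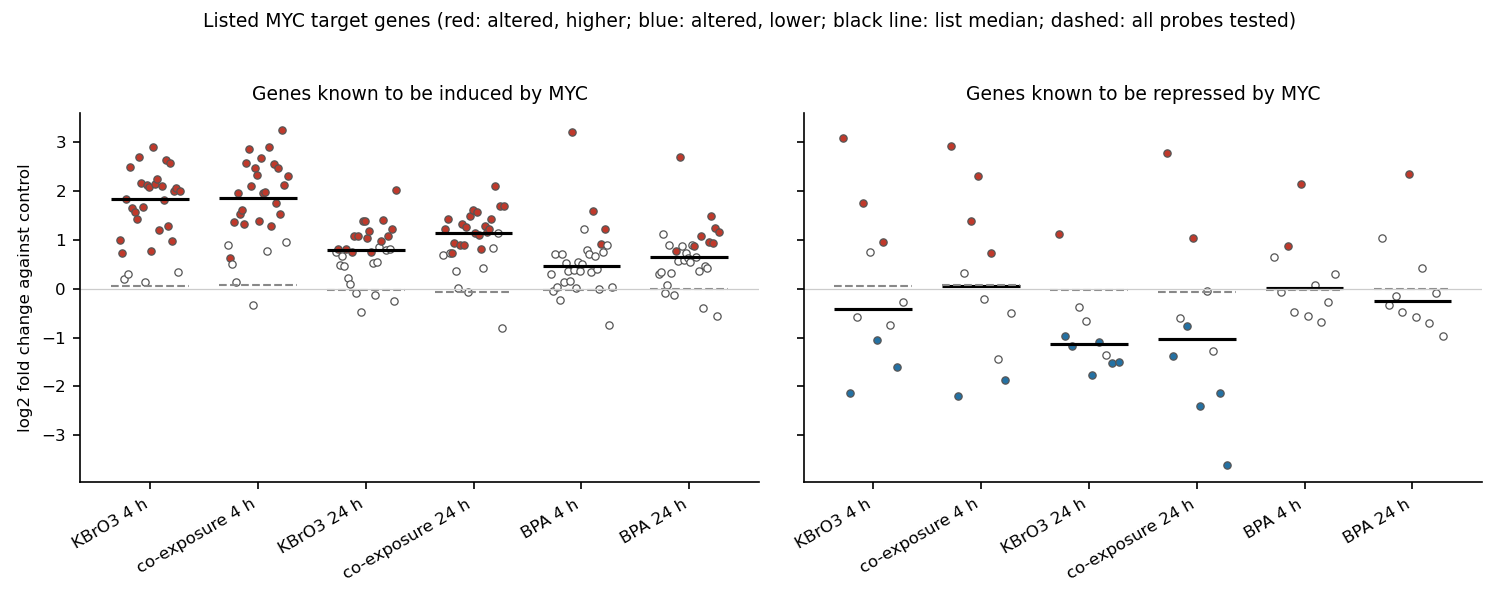
Log2 fold change against control (y axis) of 30 listed genes known to be induced (left) and 10 known to be repressed (right) by MYC, in 6 comparisons; points are genes, filled when altered, black lines are list medians and dashed lines the medians of all probes tested. The left medians are 1.83 and 1.85 at 4 hr after KBrO3 and with co-exposure, and the right list holds genes that rose and genes that fell.

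The counts in the 4 lists that follow are to be read beside the shares of all genes altered, 31.2 and 35.8% at 4 hr with KBrO3 alone and co-exposure and 19.8 and 23.5% at 24 hr. Among 11 cofactors of MYC, 5 rose and 1 fell in KBrO3 alone at 4 hr and 5 rose with co-exposure. At 24 hr 2 and 4 rose. Zbtb17, which encodes MIZ1, the partner through which MYC represses, rose 2.40-fold and 2.22-fold at 4 hr, and Wdr5, a subunit of histone methyltransferases that binds MYC, rose 2.29-fold and 1.83-fold. Ep400, an ATPase of the TIP60 complex, rose 1.97-fold and 2.19-fold at 4 hr, and Ruvbl2, an ATPase of the same complex, rose 2.12-fold with co-exposure at 24 hr. Of 9 genes that act on the stability of MYC protein, 3 rose and 1 fell at 4 hr in both treatments, and 3 and 1 rose at 24 hr. Fbxw7, the ubiquitin ligase subunit that marks phosphorylated MYC for degradation, rose 2.22-fold and 2.14-fold at 4 hr, and Aurka, a mitotic kinase that stabilizes MYCN, fell 1.59-fold and 2.26-fold at 4 hr and rose 1.73-fold with KBrO3 alone at 24 hr. Ppp2r5a, a regulatory subunit of protein phosphatase 2A, rose 1.75-fold with co-exposure at 4 hr. Of 9 corepressor genes 2 rose and 1 fell in KBrO3 alone at 4 hr and 2 rose with co-exposure. Sin3b, a scaffold bound by MXD proteins, rose 1.97-fold and 2.06-fold at 4 hr and 1.58-fold and 1.63-fold at 24 hr, while Hdac1 fell 1.58-fold with co-exposure at 24 hr. Of the SIN3-associated proteins, Sap18 rose 1.94-fold and 1.89-fold at 4 hr and Sap30 fell 1.64-fold with KBrO3 alone at 4 hr. The list of the parallel MLX branch also held Mga, which pairs with MAX. Of its 4 genes 2, Mlx and Mga, rose with co-exposure at 4 hr and in both treatments at 24 hr. Mlx, the counterpart of MAX, rose 1.69-fold and 2.39-fold at 24 hr, and Mga rose 1.52-fold and 1.56-fold. BPA alone altered none of the 33 genes of these 4 lists at either time in limma, where 4.70% and 4.32% of all genes were altered. At the Bonferroni threshold it was 0 also, against 0.110% and 0.0306% of genes. The unadjusted p was under 0.05 for 1 of them at 4 hr and 4 at 24 hr, against 20.2% and 20.8% of genes.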

How the data were processed

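RNA from 24 samples of Ku70-/- MEFs was hybridised to 1-colour Agilent arrays. The Methods call the 3 samples of each group biological replicates; whether they came from separate cultures is not given in the sources used here, so p-values measure the spread between these samples, which may be technical. The deposited values are linear intensity from Agilent Feature Extraction (12.0 in the submitters' processing notes, 9.5.3.1 and 12.0.0.7 in the headers of the first and second set), already background-corrected by the authors' scanner software. All 1080432 values of the series value table equalled these processed signals within a relative tolerance of 1e-06. Precision is limited by the number of arrays.

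Outlier and control spots were left out, spots of a probe averaged, and log2 signals centered on the 75th percentile of each array. Of 41174 probes, 32719 were matched to 19505 genes, 22951 of them by accession through RefSeq. Groups were compared within each set in limma 3.58.1 (R 4.3.3), two-sided, over 27310 and 31806 probes; tables and figures used data.table (version 1.17.8), Python 3.11.15, numpy 2.4.6, pandas 2.3.3 and matplotlib 3.10.9. Interactions between sets used 1 fit of 27180 common probes, with arrays weighted by set. The fitting was tested on simulated data. Replicate numbers did not pair the samples.

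The members, gene lists and tests were chosen with earlier results of these data known. Every member was named. In each list up to 4 genes with the largest changes among those altered were named, and for Myc the 5 genes nearest in pattern. One listed gene is not reported here by name. Alternatives were quantile or median scaling, normexp (on median signals in the second set), kept outliers, no filter on dim probes, other probes, other thresholds, fits of the compared arrays alone, slide and replicate blocks, and leaving out each array. Those for the interactions, and slide as a fixed block for groups that share no slide, were chosen after seeing the data.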

Additional observations from a re-analysis of the deposited data

Results flagged for a closer look

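For 4 members the effect of adding BPA to KBrO3 differed between 4 and 24 hr (limma interaction, Benjamini-Hochberg adjusted), 4 of the 8 tested where 57.3% of all genes passed. At 4 hr the co-exposed arrays and those of KBrO3 alone shared no slide, so there slide and added BPA cannot be told apart. The 24 hr difference minus the 4 hr difference was 1.23 log2 units for Mxi1 (adjusted p = 7.83e-07), which lay below KBrO3 alone at 4 hr and above it at 24 hr on all arrays. It was 0.89 for Mxd4 (adjusted p = 2.95e-05), 0.42 for Mxd3 (adjusted p = 0.033) and 0.34 for Mnt (adjusted p = 0.0146). The call of Mxd3 was lost without any 1 of 9 arrays and with the replicate block (adjusted p = 0.0502), and that of Mnt with slide as a random block (adjusted p = 0.0766), quantile scaling and normexp. For Myc, the effect of BPA alone exceeded that of BPA added to KBrO3 by 0.76 at 4 hr (adjusted p = 0.0281) and by 0.98 at 24 hr (adjusted p = 0.0141); the first was lost without any 1 of 4 arrays of the second set (0.62 to 0.84) and the second without control or BPA replicate 2 (0.95 and 0.78). The sets were scanned separately, so set and contrast cannot be told apart for Myc.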

How the results depend on the processing

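No altered member changed direction under the alternatives run. Members not altered did, among them Myc with KBrO3 alone at 24 hr with probe A_52_P278549 (−0.23). Fits without 1 array gave 4 altered members with KBrO3 alone at 4 hr (range 4 to 4), 4 to 5 with co-exposure at 4 hr, 2 to 3 with KBrO3 alone at 24 hr and 3 to 3 with co-exposure at 24 hr. The ranges were 0 to 2 with BPA alone at 4 hr, 1 to 1 at 24 hr, 1 to 1 for co-exposure against KBrO3 alone at either time, 2 to 2 between times with KBrO3 alone, 4 to 5 with co-exposure and 0 to 0 with BPA. They were 3 to 4 for the interaction over time, and 0 to 2 and 0 to 1 for BPA alone against added BPA at 4 and 24 hr. Normexp gave 2 members with KBrO3 alone at 4 hr, 0 with KBrO3 alone, 0 with co-exposure and 0 with BPA at 24 hr, 0 with BPA at 4 hr, 0 for added BPA at both times, 3 over time with co-exposure, 2 for the interaction over time and 0 for both between sets. Median scaling gave 0 with KBrO3 alone at 24 hr, 1 with co-exposure at 24 hr, 1 with BPA at each time and 0 for added BPA at 24 hr, and Mnt passed over time with co-exposure (0.96, adjusted p = 0.00404); quantile scaling gave 2 members in the 4 hr comparison between sets. Fits of the 6 compared arrays alone gave 3 with KBrO3 alone (without Mxd4, adjusted p = 0.0114) and 3 with co-exposure at 4 hr, 0 in the 24 hr comparisons with control and both of added BPA, and 1 over time with KBrO3 alone and with co-exposure. Slide as a fixed block gave 0 with BPA at each time and 0 for added BPA at 24 hr, with 4 and 0 over time with co-exposure and with BPA (both fits added after seeing the data), and as a random block 1 with co-exposure at 24 hr. The replicate block gave 1 member with BPA at each time and 4, 4, 2 and 3 in the comparisons of the first set with control; mean correlations of same-numbered deviations were −0.03 and 0.00. Without the filter, with probe A_52_P278549 for Myc or with A_51_P315530 for Mxd3, BPA at 24 hr gave 1 member; the last gave 2 for added BPA at 4 hr. With each set's thresholds exchanged, BPA gave 0 at each time and added BPA at 4 hr gave 2, and 4 and 6 members passed over time with KBrO3 alone and co-exposure, the addition being Mycl1, which was tested only through the 4 hr groups and lay at background on most 24 hr arrays. The causes were not tested. The median of all probes shifted by up to 0.25, 0.46 and 0.53 log2 units under quantile, median and normexp; relative to it, no altered member changed direction. The second set's wider spread limits what it resolves.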
